A study of Mus musculus with 95 samples.

Results

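The MHC class II genes described here are 8 genes, listed by symbol: Cd74, H2-Aa, H2-Ab1, H2-Eb1, H2-DMa, H2-DMb1, H2-DMb2 and Ciita. Each symbol matched 1 Ensembl gene among the 55471 features of the count table, of which 40308 had at least 1 count, and all 8 passed the filter on low counts in every fit. RNA was measured in punches of the nucleus accumbens, a forebrain reward region, from 49 male and female mice carrying Tg(Aldh1l1-EGFP/Rpl10a)JD130Htz on a B6;FVB background, in which the regulatory sequence of the astrocyte gene Aldh1l1 drives a ribosomal protein fused to a green fluorescent protein. Pull-down of the tagged ribosomes (translating ribosome affinity purification) gave an IP library, and an aliquot kept from before the pull-down gave an input library of the whole tissue. Dependent mice had 5 rounds of CIE, which as background is exposure to ethanol vapour with breaks, combined with voluntary drinking from a choice of bottles (CIE-2BC). Non-dependent mice only drank (2BC), and naive mice had no ethanol. There were 18 dependent, 13 non-dependent and 15 naive IP libraries, and 18, 15 and 16 input libraries, spread over 6 batches lettered C, G, I, J, K and L in the labels. The control mice carry the transgene too, the ages of the mice are not given in the sources used here, and the labels do not say whether animals shared a litter or cage.

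Class II molecules present peptides taken from the endosome to CD4 T cells. An alpha chain and a beta chain form the peptide groove, H2-Aa with H2-Ab1 in the A molecule. H2-Eb1 is the beta chain of the related E molecule, which has an alpha chain of its own that is not among these genes. The annotation lists that alpha chain as a polymorphic pseudogene, H2-Ea-ps. It was at 0 in all IP libraries and in all non-dependent and naive input libraries. Whether an E molecule forms in these mice was not tested. CD74, the invariant chain, fills the groove and escorts the molecule to the endosome. There the H2-DM heterodimer (H2-DMa with H2-DMb1 or H2-DMb2) exchanges the last fragment of CD74 for a peptide. CIITA, a coactivator that does not bind DNA itself, switches these genes on together by docking on factors at their promoters, and interferon gamma induces it in many cell types. In brain, microglia and the macrophages of its borders are the cells best known for class II, while resting astrocytes have little.

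In the GRCm38 genome, 6 of the genes lie in the class II region of chromosome 17: H2-DMa (chr17:34119541-34139101), H2-DMb2 (chr17:34143307-34151555), H2-DMb1 (chr17:34153072-34160230), H2-Ab1 (chr17:34257689-34269419) and H2-Eb1 (chr17:34305867-34316674) on the plus strand, and H2-Aa (chr17:34282744-34287823) on the minus strand. Ciita is at chr16:10480059-10528418 on the plus strand. Annotated exons of Brd2, on the opposite strand, cover 10.4% of the exon bases of H2-DMa, and those of Dexi cover 3.45% of those of Ciita. Because the use of strand in the authors' counting is unknown here, the reads of such partners cannot be told apart, and reads of the close paralogs H2-DMb1 and H2-DMb2 could also be split between them.

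The factors that CIITA docks on bind an X box and a Y box that stand a fixed way apart, upstream of class II genes. RefSeq promoter windows (GRCm38.p6, 250 bases before to 50 bases after a start) were at hand for 5 of the 8 genes: H2-Aa, H2-Eb1, H2-DMb1, H2-DMb2 and H2-DMa, the last with 2 starts. H2-Ab1, Cd74 and Ciita are named only. The letters GNAAC, found within the X1 part of the X box, were searched together with ATTGG, the Y box, starting 25 to 45 bases further on the same strand, on both strands of the window. The pair was present in 3 of the 5 genes and in 3.41% of 32851 promoter windows of that length. It is shown for those 3, which are also 3 of the genes described as higher below, with the X1 and Y letters in capitals.
H2-Aa (chr17:34287862-34287914, minus strand): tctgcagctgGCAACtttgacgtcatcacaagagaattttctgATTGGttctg
H2-Eb1 (chr17:34305766-34305817, plus strand): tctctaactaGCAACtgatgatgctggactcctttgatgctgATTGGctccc
H2-DMb1 (chr17:34153087-34153139, plus strand): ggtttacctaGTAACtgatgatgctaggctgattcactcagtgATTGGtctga
The X1 letters start 33, 32 and 33 bases before the Y letters, and the Y letters start 48, 59 and 61 bases upstream of the RefSeq start of the window in H2-Aa, H2-Eb1 and H2-DMb1. For H2-DMb1 that start, and the letters shown, lie inside the gene span given above. The windows of H2-DMb2 and of the second start of H2-DMa hold ATTGG without the X1 letters at that distance, as do windows of many genes (ATTGG is in 37.4%), and the first H2-DMa window holds neither the pair nor ATTGG. The letters TTCNNNGAA, known as the interferon gamma activated site and the same on both strands, were in the window of H2-DMb2 (8.3% of all windows). The 3 non-member chains H2-Oa, H2-Ob and H2-Eb2 had the X1 and Y pair too.

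The IP libraries held between 14314236 and 27146790 counts and the input libraries between 12803108 and 23948193. Levels are in CPM, counts scaled to a common library size, so that 1 CPM stands for few reads. All 12 astrocyte markers listed were called higher in IP than in input (median log2 difference 3.13), and 17 of 18 microglia markers were called lower (median -1.03). Each library of a fraction comes from its own mouse, and the p-values treat the mouse as the unit.

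The genes were compared with each other only per kilobase of exon. In naive IP libraries, the median level ran from 6.07 CPM per kilobase for H2-DMa through 1.22 for H2-DMb1, 1.01 for Cd74, 0.644 for H2-DMb2, 0.593 for H2-Eb1, 0.471 for H2-Ab1 and 0.178 for H2-Aa to 0.0235 for Ciita. The libraries of neighbours in that order overlapped, except for H2-DMa, whose lowest naive library (3.75) was above the highest of every other gene. In dependent IP libraries Cd74 came first (6.07 CPM per kilobase), followed by H2-DMa (5.91) and H2-Ab1 (4.21), and Ciita stayed last (0.0274).

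Cd74, the invariant chain (chr18:60803848-60812652, plus strand), was higher in dependent mice than in both control groups, in IP and in input. In IP it ran from 1.07 CPM through a median of 10.2 to 322 in dependent mice, from 0.182 through 1.003 to 3.22 in non-dependent mice, and from 0 through 1.69 to 3.11 in naive mice. The spread among dependent mice was thus far wider than that of the controls, and 13 of 18 were above the highest of the 28 control IP libraries. The fitted log2 fold change (edgeR quasi-likelihood test, with batch and sex in the design, adjusted by Benjamini-Hochberg over all genes) was 5.45 ± 0.91 (SE) against non-dependent mice (adjusted p = 0.000706) and 4.21 ± 0.86 against naive mice (adjusted p = 0.00222). Each of these IP calls held in all 44 fits that left out 1 mouse and in 9 of 12 other settings. Both were lost by limma voom and in batches J and K only. The call against non-dependent mice was also lost without batch I, and that against naive mice without batch J. In input, Cd74 ran from 1.07 through 6.45 to 269 CPM in dependent, 0.444 through 1.59 to 2.23 in non-dependent and 1.30 through 2.26 to 4.45 in naive mice. There 9 of 18 dependent mice were above the highest control, with log2 fold changes of 4.70 ± 0.65 (adjusted p = 0.000114) and 2.41 ± 0.66 (adjusted p = 0.0377). The last call was lost in 11 of 47 fits that left out 1 mouse (lowest value 2.07, without J05), without the filter (2.42, adjusted p = 0.0531) and by limma voom (1.27, adjusted p = 0.594). It was lost too without batch J (2.00), K (2.43) or L (2.95). In bulk samples such as these, more cells that hold a transcript and more of it per cell cannot be told apart.

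The alpha and beta chains of the peptide groove were called higher in IP against both control groups, with the smallest fold changes for H2-Eb1. H2-Ab1 ran from 1.03 CPM through 10.8 to 216 in dependent IP libraries, from 0.135 through 0.728 to 2.71 in non-dependent and from 0.230 through 1.21 to 3.21 in naive ones, and 14 of 18 dependent mice were above every control. Its log2 fold change in IP was 5.36 ± 0.75 against non-dependent (adjusted p = 0.000103) and 3.60 ± 0.73 against naive mice (adjusted p = 0.00214). H2-Aa ran from 0 through 5.12 to 106 CPM in dependent IP libraries, from 0 through 0.200 to 2.31 in non-dependent and from 0 through 0.676 to 2.34 in naive ones, with 12 of 18 dependent mice above every control. It was listed at 0 in 1 dependent, 3 non-dependent and 3 naive IP libraries, and its log2 fold changes were 5.51 ± 0.97 (adjusted p = 0.00123) and 3.96 ± 0.90 (adjusted p = 0.00589). H2-Eb1 ran from 0.0766 through 4.43 to 72.3 CPM in dependent, from 0.250 through 1.46 to 3.34 in non-dependent and from 0.271 through 1.15 to 3.30 in naive IP libraries, and 10 of 18 dependent mice were above every control. Its log2 fold changes were 3.47 ± 0.64 (adjusted p = 0.00184) and 2.20 ± 0.66 (adjusted p = 0.0434). The last of these, the call nearest the threshold, was lost in 23 of the 44 fits that left out 1 mouse, with the lowest value, 1.83, without J05. By limma voom none of these chains was called in IP against either control group, as given below. Nor were they called in batches J and K only, without batch I against non-dependent mice, or without batch J against naive mice.

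In input the groove chains were all called higher against non-dependent mice, and H2-Aa alone of them against naive mice. The log2 fold changes against non-dependent mice were 4.15 ± 0.62 for H2-Aa (adjusted p = 0.000227), 4.10 ± 0.61 for H2-Ab1 (adjusted p = 0.000227) and 3.08 ± 0.58 for H2-Eb1 (adjusted p = 0.00399). Against naive mice they were 2.52 ± 0.68 for H2-Aa (adjusted p = 0.0353), 2.24 ± 0.67 for H2-Ab1 (adjusted p = 0.0653) and 2.01 ± 0.64 for H2-Eb1 (adjusted p = 0.0864). Levels in dependent input libraries ran from 0.416 through 2.98 to 103 CPM for H2-Aa, from 1.02 through 4.91 to 145 for H2-Ab1 and from 0.932 through 3.11 to 73.8 for H2-Eb1. The highest control input libraries held 2.37, 2.79 and 4.30 CPM of these genes, and 12, 12 and 8 of the 18 dependent mice were above them. The call of H2-Aa against naive mice was lost in 7 of 47 fits that left out 1 mouse (lowest value 2.21, without J05), without the filter (2.52, adjusted p = 0.0524) and by limma voom (1.83, adjusted p = 0.344). It was lost too without batch J (1.83), K (2.66) or L (3.16).

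Of the H2-DM subunits, which edit the peptide in the groove, H2-DMb1 alone was called by edgeR, in IP against non-dependent mice. H2-DMb1 ran from 0.469 through 3.90 to 23.4 CPM in dependent, from 0.630 through 1.72 to 3.48 in non-dependent and from 0.207 through 2.05 to 3.55 in naive IP libraries. Its log2 fold change was 1.86 ± 0.43 against non-dependent (adjusted p = 0.0128) and 1.21 ± 0.46 against naive mice (adjusted p = 0.13), with 10 of 18 dependent mice above every control. The first call was lost without batch J (1.93, adjusted p = 0.0693), without batch I (0.69, adjusted p = 0.719) and by limma voom (1.60, adjusted p = 0.0843). Against naive mice, H2-DMb1 was called by DESeq2 (adjusted p = 0.0351) and by edgeR without the filter (adjusted p = 0.00067). The IP fit without the filter gave Cd74 a far smaller SE than the main fit, as given below for non-dependent against naive mice. Its calls are read with that limit. H2-DMa, the alpha subunit, had the highest level per kilobase in controls. In CPM it ran from 13.5 through 20.4 to 79.3 in dependent, from 12.2 through 17.6 to 21.3 in non-dependent and from 12.9 through 20.9 to 29.6 in naive IP libraries. Medians of H2-DMa lay close together, and the 4 dependent mice above every control were I02 (79.3 CPM), I11 (63.4), I05 (54.7) and J05 (30.2). The log2 fold change of H2-DMa was 0.69 ± 0.19 against non-dependent mice (adjusted p = 0.0515) and 0.18 ± 0.21 against naive mice (adjusted p = 0.758). The first was called in 13 of 44 fits that left out 1 mouse, by DESeq2 (adjusted p = 0.0107) and by edgeR without the filter, without batch L, with other size factors or with a filter that ignores groups. H2-DMb2 ran from 0 through 1.17 to 3.85 CPM in dependent, from 0.0393 through 0.488 to 1.91 in non-dependent and from 0 through 1.13 to 2.23 in naive IP libraries, with log2 fold changes of 0.75 ± 0.52 (adjusted p = 0.641) and 0.09 ± 0.55 (adjusted p = 0.969).

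Ciita, the coactivator, was near the limit of these libraries and was called in no treatment comparison. In IP it ran from 0 through 0.261 to 3.81 CPM in dependent, from 0 through 0.180 to 1.54 in non-dependent and from 0 through 0.224 to 0.777 in naive mice, and it was at 0 in 5, 2 and 4 of these libraries. The 3 dependent IP libraries above every control belonged to I05 (3.81 CPM), I11 (2.66) and I02 (2.25), which also held the most Cd74. The log2 fold change was 1.19 ± 0.76 against non-dependent (adjusted p = 0.6) and -0.19 ± 0.84 against naive mice (adjusted p = 0.957) in IP, and 1.59 ± 0.60 (adjusted p = 0.452) and 0.67 ± 0.66 (adjusted p = 0.766) in input.

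**Figure D1:**
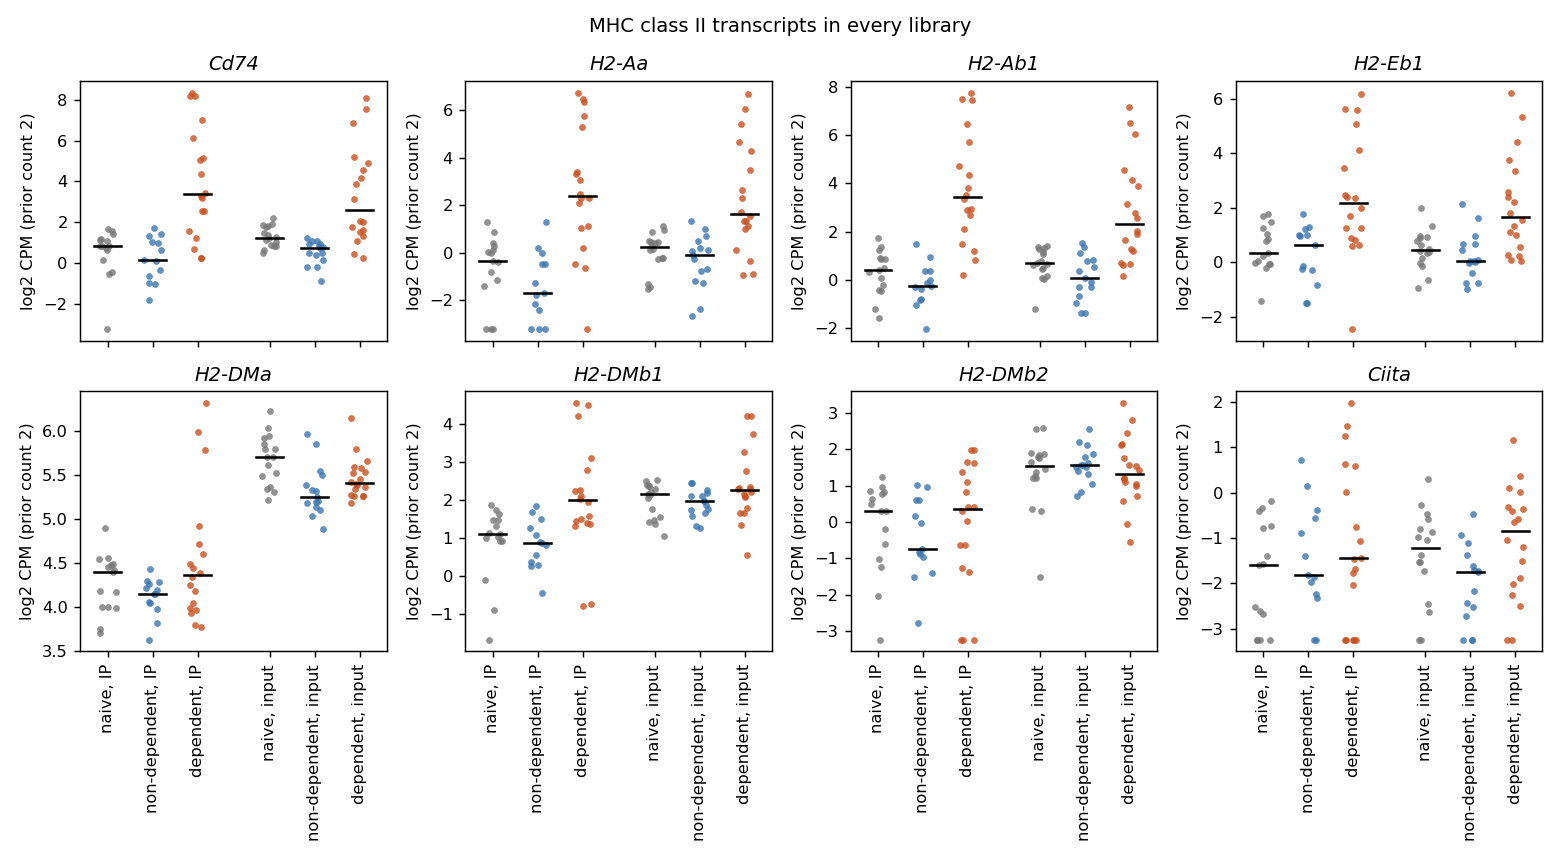
Level of each of the 8 genes in every library, as log2 CPM with a prior count of 2 (each panel has its own vertical scale), by treatment and fraction, with a bar at the group median. The dependent libraries of Cd74, H2-Aa, H2-Ab1 and H2-Eb1 spread from control level upward, with Cd74 at up to 322 CPM in IP, while those of H2-DMa, H2-DMb2 and Ciita mostly overlap the controls.

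Counted over the 8 genes, 5 were called higher in dependent than in non-dependent mice in IP, where 1.1% of all 19979 genes tested were called higher, and 4 in input, where 0.31% of 19691 were. Against naive mice, 4 were called higher in IP (2.81% of all genes) and 2 in input (1.42% of all genes). The median log2 fold change of the 8 against non-dependent mice was 2.67 in IP and 2.34 in input, and that of all genes tested was 0.00 in both. None of the 8 was called lower in a treatment comparison. The dependent libraries are shared by the comparison with non-dependent and the one with naive mice, so these do not count as separate evidence. The calls depended on the test: limma voom, which gives the logarithm of each library's count its own weight, gave the same direction for all 5 genes called in IP but called 0 of the 8 there against either control (1.02% and 2.59% of all genes called higher), with adjusted p-values of 0.0999 for Cd74, 0.0526 for H2-Aa and 0.0678 for H2-Ab1 against non-dependent mice in IP. In input it called 4 against non-dependent mice (0.305%). DESeq2 called 6 against non-dependent mice (1.65% of all genes called higher) and 5 against naive mice (3.61%) in IP.

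**Figure D2:**
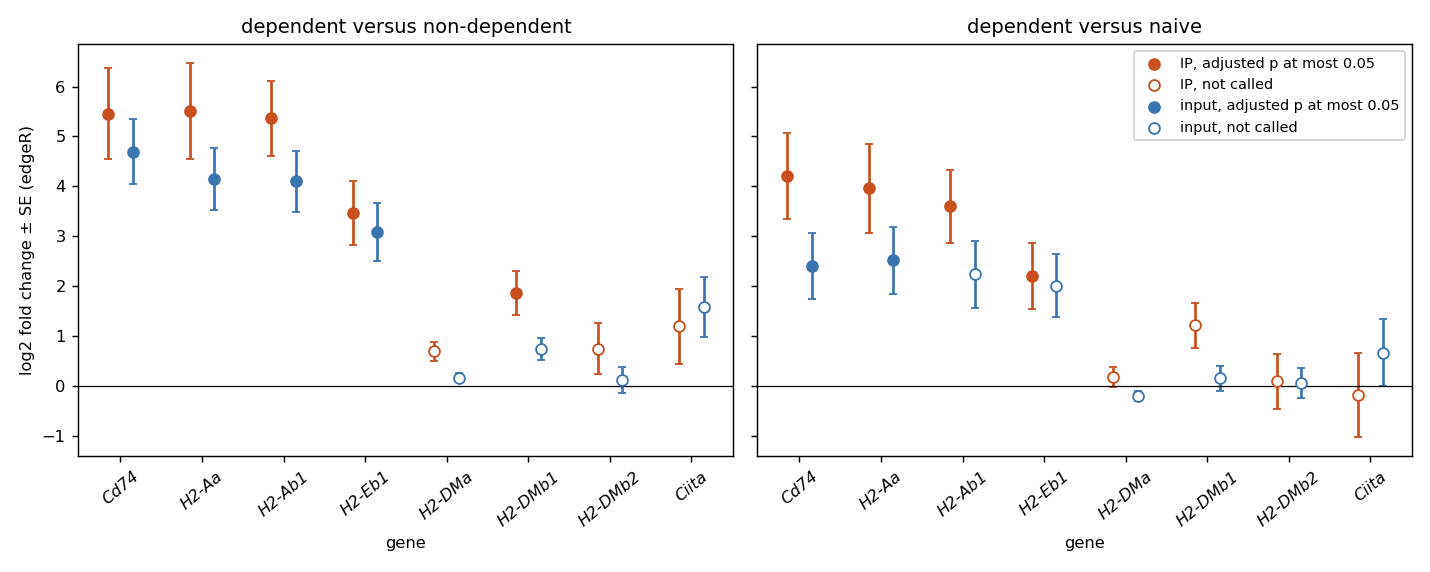
Fitted log2 fold change of each gene (edgeR, vertical axis, bars are SE) in dependent mice against non-dependent mice on the left and against naive mice on the right, for IP (orange) and input (blue), filled where the adjusted p is at most 0.05. Cd74, H2-Aa and H2-Ab1 have the largest values in IP, from 3.60 to 5.51, and H2-DMa, H2-DMb2 and Ciita are open throughout.

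Values within batches were then compared. In IP of batch I, Cd74 had a median of 32.7 CPM in 7 dependent and 0.971 in 7 non-dependent mice, a difference in mean log2 CPM of 5.62. In batch J the medians were 38.2 CPM in 4 dependent, 0.692 in 3 non-dependent and 1.89 in 4 naive mice. In batch K, with 2 dependent mice, both male, the median of 1.08 CPM was below the 1.95 of 3 non-dependent and the 1.68 of 4 naive mice. The differences in mean log2 CPM were -1.02 and 0.35. The naive mean includes 1 library at 0 CPM, and its difference is positive although the medians run the other way. In batch L, 3 dependent mice had a median of 9.15 CPM and 7 naive mice 1.57, a log2 difference of 2.49. For H2-Ab1 the log2 differences against non-dependent mice were 5.52 in batch I, 3.89 in batch J and 0.98 in batch K, and against naive mice 3.94 in batch J, 0.69 in batch K and 2.49 in batch L.

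Whether the treatment difference varied among batches was tested as an interaction. No member was called for dependent against non-dependent mice over batches I, J and K (0.00468% of all genes in IP, 0% in input) or for dependent against naive mice over J, K and L (0.0049% in IP, 0.0382% in input). By edgeR, 3 of the 8 in IP and 4 in input had an unadjusted p under 0.05 in each of these tests, with 6.71% of all genes in IP and 4.7% in input in the first and 4.1% and 9.15% in the second. For Cd74 it was 0.0163 in IP and 0.0115 in input in the first and 0.0316 and 0.0294 in the second. Without batch I, 0 of the 8 genes were called against non-dependent mice in either fraction (0.00506% of all genes called higher in IP, 0% in input), with log2 fold changes in IP of 3.39 ± 1.08 for Cd74 and 3.84 ± 0.80 for H2-Ab1 (adjusted p = 0.256 and 0.0646). Without batch J, 0 were called against naive mice in IP (0.904% of all genes), with 3.59 ± 1.10 for Cd74 and 2.67 ± 0.85 for H2-Ab1 (adjusted p = 0.102 and 0.121). Batches J and K alone, the batches with all 3 treatments, gave 0 calls among the 8 in these comparisons, with 0% of all genes called higher against non-dependent mice in both fractions and 0.643% in IP and 0.0658% in input against naive mice.

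The 4 dependent mice with the most Cd74 in IP were also the 4 with the most H2-Aa, H2-Ab1 and H2-Eb1, in another order. The IP library of I11 held 322 CPM of Cd74, 80.3 of H2-Aa, 175 of H2-Ab1 and 48.3 of H2-Eb1. I05 held 292, 89.5, 180 and 48.9 CPM of the same genes, and I02 held 286, 106, 216 and 72.3. J05 (127 CPM of Cd74), J09 (70.7), L25 (35.0), I13 (32.7), I07 (20.2) and I09 (10.8) followed. At the other end, K18, K21, I15, L26 and C17 held 1.07, 1.08, 1.49, 2.21 and 2.89 CPM of Cd74 and lay within the range of the controls. The high libraries came from both sexes (I11 and J05 are male, I05 and I02 female) and from batches I, J and L.

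**Figure D3:**
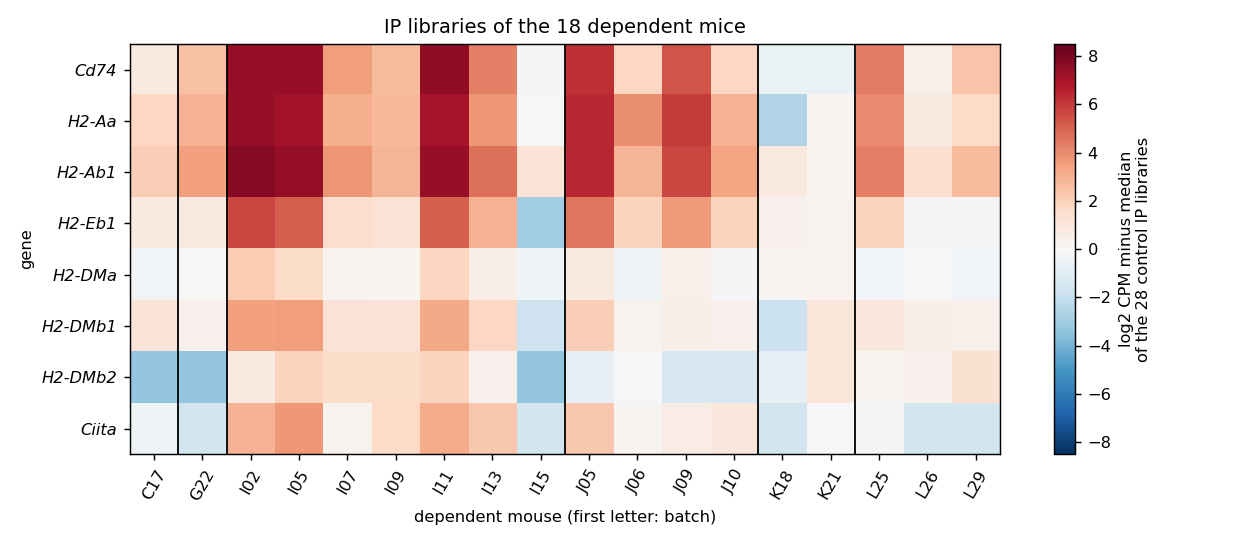
Level of each gene (rows) in the IP library of each of the 18 dependent mice (columns, ordered by batch letter and mouse number, lines between batches), as log2 CPM minus the median of the 28 control IP libraries. Cd74, H2-Aa, H2-Ab1 and H2-Eb1 darken together in I02, I05, I11 and J05, up to 7.72 for H2-Ab1 in I02, while H2-DMa exceeds 1.5 only in I02, I05 and I11.

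Across the 18 dependent IP libraries, log2 CPM of Cd74 correlated with that of H2-Ab1 at Pearson r = 0.99, of H2-Aa at 0.95, of H2-Eb1 at 0.91, of H2-DMb1 at 0.83, of Ciita at 0.82, of H2-DMa at 0.79 and of H2-DMb2 at 0.42. These points share their libraries, batches and depth, and the values are a description. Count ratios were taken in the 11 dependent IP libraries with at least 50 counts of Cd74, H2-Aa, H2-Ab1 and H2-Eb1 each. Libraries with fewer counts of any of these genes were left out, so low ratios of H2-Aa and H2-Eb1 could go unseen. The ratio of Cd74 to H2-Ab1 counts ran from 0.558 through a median of 1.43 to 1.84. That of H2-Aa ran from 0.317 through 0.497 to 1.30 and that of H2-Eb1 from 0.266 through 0.334 to 0.678. These are ratios of raw counts, not corrected for exon length, and show how far a ratio varied between libraries, not which gene had the higher level.

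Non-dependent and naive mice were not told apart by any of the 8 genes: 0 were called in IP and 0 in input, where 0.44% and 0.122% of all genes were called in either direction. At an unadjusted p under 0.05 edgeR gave 1 of the 8 in IP (H2-DMa, with 10.2% of all genes) and 5 in input (7.17%). DESeq2 called 0 in IP (1.25% of all genes) and in input (0.305%), as did limma voom (0.581% and 0.178%). Without the filter on low counts, 5 were called in IP, with 1.34% of all genes. That fit gave Cd74 a similar value with a far smaller SE (-1.22 ± 0.16). The fitted log2 fold changes of non-dependent against naive mice were all negative in IP, from -0.51 ± 0.22 for H2-DMa to -1.76 ± 0.87 for H2-Ab1. For Cd74 they were -1.24 ± 1.001 in IP (adjusted p = 0.739) and -2.29 ± 0.76 in input (adjusted p = 0.34). Batch I has no naive and batch L no non-dependent mice, so these values pass through the dependent mice. Within batches J and K, which hold both groups, the differences of Cd74 were -0.88 and 1.37 in IP and -0.63 and -0.70 in input.

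No difference by sex was called. The dependent-minus-control difference in females minus that in males was called for 0 of the 8 genes in IP and input, against non-dependent and against naive mice (0% of all genes called in each). The same test of non-dependent against naive mice also called 0 members and 0% of all genes, and in none of these edgeR tests did a member have an unadjusted p under 0.05. Of all genes, 3.34% in IP and 3.08% in input had one against non-dependent mice, 3.14% and 2.74% against naive mice, and 4.29% and 4.93% between the control groups. For Cd74 in IP the difference was 0.74 ± 1.57 against non-dependent and -0.02 ± 1.29 against naive mice. Standard errors of this size leave a large difference either way undetected. In IP, Cd74 ran from 2.89 through 21.7 to 292 CPM in 10 dependent females and from 1.07 through 3.96 to 322 in 8 dependent males.

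In a fit of the 46 mice that gave both fractions, blocked by mouse, Cd74 (log2 difference 0.51 ± 0.12), H2-Aa (0.32 ± 0.13), H2-Ab1 (0.79 ± 0.13) and H2-Eb1 (0.37 ± 0.13) were called higher in IP than in input, as were 35.3% of all genes. H2-DMa (-1.15 ± 0.08), H2-DMb1 (-0.49 ± 0.13) and H2-DMb2 (-1.38 ± 0.14) were called lower, as were 45.8%. Counts of 4 and 3 of 8 are near these shares. Ciita was not called (0.48 ± 0.25, adjusted p = 0.0758). The first group was called higher in dependent mice on their own: 0.79 ± 0.12 for Cd74, 0.53 ± 0.13 for H2-Aa, 1.11 ± 0.12 for H2-Ab1 and 0.49 ± 0.15 for H2-Eb1 (31.6% of all genes called higher), with H2-DMa (-0.86 ± 0.11) and H2-DMb2 (-1.12 ± 0.21) called lower (37.6% of all genes). In naive and in non-dependent mice only the 3 DM genes were called, all lower (35.8% and 35.2% of all genes called lower), and Cd74 stood at -0.59 ± 0.28 and -0.01 ± 0.35. Of single mice, the CPM of Cd74 was higher in IP than in input in 15 of 18 dependent, 3 of 15 naive and 6 of 13 non-dependent mice. Over all 46 mice, IP was higher in 24 for Cd74, 20 for H2-Aa, 25 for H2-Ab1 and 29 for H2-Eb1. The median log2 ratio of H2-Aa over these mice was -0.10, against 0.32 in the fit.

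The difference between fractions was then tested against treatment, in the mice of the 4 batches I, J, K and L, again blocking on the mouse. The treatment difference was larger in IP than in input for H2-Ab1 against non-dependent mice (1.56 ± 0.34, adjusted p = 0.0265, 0.124% of all genes called higher), and for Cd74 (1.60 ± 0.35, adjusted p = 0.0152) and H2-Ab1 (1.49 ± 0.34, adjusted p = 0.0218) against naive mice (0.203% of all genes). H2-Aa had values of a like size that were not called (1.62 ± 0.52 and 1.35 ± 0.45, adjusted p = 0.247 and 0.252), and H2-Eb1 was at 0.29 ± 0.38 and 0.31 ± 0.41. Between non-dependent and naive mice no member was called (0% of all genes). Without the mouse block, 0 members were called in these tests (0% of all genes against non-dependent and 0.0298% against naive mice).

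**Figure D4:**
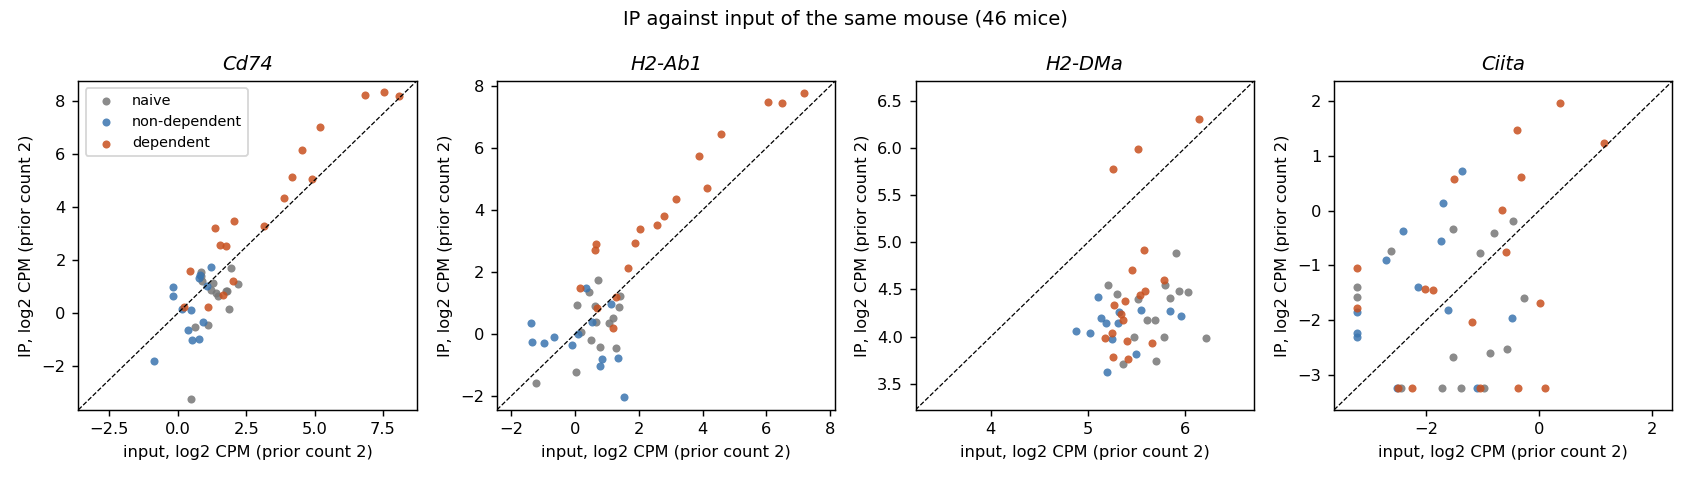
IP level against input level of the same mouse, both as log2 CPM with a prior count of 2, for Cd74, H2-Ab1, H2-DMa and Ciita in 46 mice, coloured by treatment, with a dashed line of equality. For Cd74 and H2-Ab1 most dependent mice lie above the line and rise along it, H2-DMa lies below it in all but 3 mice, and Ciita scatters.

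Across the 18 dependent mice, IP and input levels of Cd74 and the groove chains went together. Pearson r of log2 CPM was 0.95 for Cd74, 0.94 for H2-Ab1, 0.92 for H2-Aa and 0.91 for H2-Eb1 (Spearman rho 0.93, 0.92, 0.92 and 0.93; permutation p = 1e-05 for each, the smallest that 100000 permutations can give, adjusted p = 2e-05 over the 8 genes). Without the 2 mice farthest from the median input level, r was 0.93, 0.91, 0.90 and 0.88, and within the 7 mice of batch I it was 0.96, 0.98, 0.97 and 0.94. H2-DMb1 (r = 0.80, rho = 0.67, permutation p = 0.00016 and 0.00291) and H2-DMb2 (r = 0.73, rho = 0.79, permutation p = 0.00063 and 0.00016) were next, with r = 0.69 and 0.61 without the 2 farthest mice. H2-DMa had r = 0.52 (rho = 0.41, permutation p = 0.0294 and 0.0881), which fell to 0.17 without the 2 farthest mice, so that it rested on them. Ciita had r = 0.41 (rho = 0.34, permutation p = 0.0857 and 0.163).

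Genes of the steps around class II presentation were described from lists. Among genes of interferon gamma signalling towards Ciita, Irf1, a transcription factor that acts on a Ciita promoter, was called higher in IP against non-dependent mice (1.57 ± 0.29, adjusted p = 0.00173). Irf1 ran from 3.28 through 11.2 to 61.4 CPM in dependent and from 1.43 to 10.7 CPM in control IP libraries. Irf1 was also called higher in IP against naive mice (1.24 ± 0.30, adjusted p = 0.00975). In input it was not called against non-dependent mice (0.89 ± 0.23, adjusted p = 0.0795) or naive mice (0.50 ± 0.27, adjusted p = 0.405). Ifng itself was at 0 in all 18 dependent IP libraries and in 17 of 18 dependent input libraries. Among non-dependent and among naive IP libraries, Ifng was not at 0 throughout. None of the 7 promoter binding factors (Rfx5, Rfxap, Rfxank, Nfya, Nfyb, Nfyc and Creb1) was called in a comparison of dependent with control mice, and their median log2 fold change in IP against non-dependent mice was -0.07. Of all genes, between 0.355% and 4.67% were called in these comparisons, and a count of 0 is near such shares.

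Of 8 genes of endolysosomal antigen processing, 2 were called higher in IP against non-dependent mice (1.1% of all genes): Ctss, the cathepsin that trims CD74 (1.01 ± 0.26, adjusted p = 0.0336), and Ifi30, a thiol reductase of the endosome (0.94 ± 0.24, adjusted p = 0.0283). Ctss ran from 28.6 through 65.8 to 336 CPM in dependent and from 29.2 to 64.4 CPM in control IP libraries. Against naive mice (2.81% of all genes called higher) the 2 called higher in IP were others, Lgmn (0.35 ± 0.09, adjusted p = 0.0149) and Ctsh (0.90 ± 0.26, adjusted p = 0.033), both endosomal proteases. None of the 8 was called in input, where 0.355% of all genes were called against non-dependent and 2.38% against naive mice. Of 8 tested genes of class II surface turnover and costimulation, Cd274, which encodes the inhibitory ligand PD-L1 (1.71 ± 0.41, adjusted p = 0.0157), and Icosl, a costimulatory ligand (0.78 ± 0.20, adjusted p = 0.0319), were called higher in IP against non-dependent mice (1.1% of all genes), and none in the other comparisons with dependent mice. Mif and Ddt, the ligands that bind CD74 at the cell surface, and their partner receptors were not called (0 of 5 tested in IP, 0 of 4 in input). In lists this small a count of 0 is near the shares of all genes called. Of the other class II chains, H2-Oa and H2-Ob, which restrain H2-DM, passed the filter. H2-Oa stood at 2.55 ± 0.9998 in IP against non-dependent mice (adjusted p = 0.242), with 0.223 CPM at the median and 3.75 at the highest in dependent IP libraries.

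Markers of other cells that can hold class II were read beside these results. The summed level of 18 microglia markers ran from 269 through 385 to 1081 CPM in dependent IP libraries, from 275 to 428 in non-dependent and from 284 to 438 in naive ones. Its highest values were in I02 (1081 CPM), J05 (919), I11 (558) and I05 (547), the 4 dependent mice with the most Cd74, and J09 (485), L25 (458) and, by a small margin, C17 (438.2) were also above every control (highest 437.7). I13, I07 and I09, with 10.8 to 32.7 CPM of Cd74, had sums of 335, 355 and 269 CPM, inside or below the range of the controls. Of the 18 markers, C1qa (0.75 ± 0.17, adjusted p = 0.0117), C1qb (0.69 ± 0.18, adjusted p = 0.0393) and C1qc (0.83 ± 0.19, adjusted p = 0.0104), parts of complement C1q, were called higher in IP against non-dependent mice and none against naive mice. Of all genes, 1.1% were called higher in IP against non-dependent mice and 2.81% against naive mice. With the mean log2 level of these markers as a covariate, 4 of the 5 genes called in IP against non-dependent mice were called again (0.796% of all genes called higher): Cd74 (3.89 ± 0.70), H2-Ab1 (4.10 ± 0.57), H2-Aa (4.12 ± 0.77) and H2-Eb1 (2.46 ± 0.48). H2-DMb1 was not (1.25 ± 0.38, adjusted p = 0.108). Against naive mice (2.73% of all genes) the same fit gave 2.67 ± 0.70 for Cd74, 2.59 ± 0.56 for H2-Ab1, 2.55 ± 0.75 for H2-Aa and 1.26 ± 0.51 for H2-Eb1, the last no longer called (adjusted p = 0.17).

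Markers of 5 other immune cell types summed to less than those of microglia in the IP libraries. Border macrophage markers summed to 3.51 through 7.40 to 17.9 CPM in dependent IP libraries and to between 2.32 and 11.99 in controls, with the highest again in I02. Dendritic cell markers summed to 2.23 through 6.32 to 9.64 CPM in dependent and to between 2.00 and 8.93 in control IP libraries, and monocyte markers to 2.33 through 7.41 to 20.7 and to between 3.10 and 12.3. B cell markers summed to at most 2.78 CPM in dependent IP libraries, with Pax5 and Blk at 0 in all of them. The highest sums were in J05 (2.78 CPM) and I02 (1.90), while I05 and I11 held 0.822 and 0.193. Among dependent input libraries the B cell sum was highest in I02 (4.55 CPM). The control sums of this list are not given here. T cell markers summed to 7.87 through 19.6 to 32.6 CPM in dependent and to between 13.9 and 39.7 in control IP libraries. Of these, Cd3e was at 0 in 17 of 18 dependent IP libraries, and Cd3d and Cd3g in 14 each. Where they were at 0, the sum came from the other genes of that list, which are not given one by one. No list of these 5 cell types had a called gene in any of the 4 comparisons of dependent with control mice. Of all genes, 1.54% in IP and 0.355% in input were called in either direction against non-dependent mice. Against naive mice the shares were 4.67% and 2.38%. A count of 0 is near these shares and is not read as a result about these cells. The astrocyte markers summed to between 21850 and 31119 CPM in dependent and between 22756 and 30584 in control IP libraries. Of these 12 markers, none was called in IP against non-dependent mice (1.54% of all genes). Against naive mice, Gfap (0.98 ± 0.18), Gjb6 (0.72 ± 0.13) and Fgfr3 (0.26 ± 0.08) were called higher (2.81% of all genes) and S1pr1 (-0.26 ± 0.07) lower (1.86%), and the median of the 12 was -0.06. The part of cell composition in the class II difference was not tested beyond these values and the covariate fit.

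The genes whose log2 level was most like that of Cd74 were named by the largest Pearson r among genes with a mean of at least 1 CPM. Over all 46 IP libraries (15267 genes ranked) these were H2-K1 (r = 0.90), H2-T23 (0.90), Igtp (0.88), Gm12250 (0.87), Bst2 (0.85) and Psmb9 (0.85). Over the 18 dependent IP libraries (15309 genes ranked) they were H2-Q7 (0.94), H2-T23 (0.94), H2-K1 (0.93), Gm12250 (0.93), Irf9 (0.91) and Irgm2 (0.91). H2-K1, H2-Q7 and H2-T23 are class I heavy chains, Psmb9 is a subunit of the immunoproteasome, Igtp and Irgm2 are GTPases of the interferon response, Bst2 is an antiviral membrane protein and Irf9 a transcription factor of type I interferon signalling. Ranked by Spearman rho, H2-Q7 came first over the 46 libraries (0.76) and, together with H2-T23, over the 18 (0.91 each). The points share their libraries, batches and depth, and H2-K1, H2-Q7 and H2-T23 are close paralogs whose reads can be shared.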

How the data were processed

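RNA of the IP and input fractions of single mice was sequenced from SMART-Seq PLUS libraries, per the labels' protocols. The submitters' processing notes name FastQC 0.11.9, Trimmomatic 0.39, STAR 2.7.10b and the GRCm38 genome. The counting program, annotation and use of strand are not given in the sources used here. The authors deposited whole-number read counts per Ensembl gene, with no normalization. Of 55471 IDs, 55230 matched a gene symbol.

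Counts were filtered with filterByExpr by treatment and sex, scaled by TMM and tested with edgeR 4.0.16 (R 4.3.3) quasi-likelihood fits, IP and input apart, on treatment by sex with a batch term. Effects were averaged over the sexes, and p-values were adjusted by Benjamini-Hochberg over all genes tested, with calls at 0.05. Batches C and G hold 1 dependent mouse each and were left out of the treatment fits, while levels are given for all mice. IP and input were compared with the mouse as a block. The labels give the pairing: both fractions come from 1 mouse. Same-mouse deviations from the group means correlated at a median of 0.464 (lowest -0.0342, highest 0.685), above 0.1 in 45 of 46 mice. DESeq2 1.42.0, limma 3.58.1 (voom), other filters and scalings, batches or mice left out and a microglia marker covariate were alternatives. The fits were tested on simulated data. Relations between fractions used 100000 permutations.

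The members and gene lists were chosen with earlier results of these data known. The rule for named genes takes the 8 members, of each list up to 3 tested genes with the smallest p in a comparison, and the 6 genes most like Cd74. Ifng, the promoter factors, H2-Ob, H2-Ea-ps and marker genes at 0 are named outside it. Some genes of the lists are not reported here.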

Additional observations from a re-analysis of the deposited data

Results flagged for a closer look

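The difference between dependent and control mice was larger in IP than in input for 3 results. For H2-Ab1 against non-dependent mice the difference of the log2 fold changes was 1.56. Against naive mice it was 1.60 for Cd74 and 1.49 for H2-Ab1. Each passed the edgeR test with the mouse as a block.

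The dependent females C17 and G22 belong to batches with no control mouse and were in no treatment fit. G22 held more Cd74 in IP (9.58 CPM) than the highest control IP library (3.22 CPM), more H2-Aa (4.87 CPM against 2.34) and more H2-Ab1 (11.4 CPM against 3.21). In input G22 held 8.85 CPM of Cd74 (highest control 4.45), 3.14 of H2-Aa (2.37), 5.80 of H2-Ab1 (2.79) and 4.52 of H2-Eb1 (4.30). C17 was above the highest control in H2-Ab1, with 4.26 CPM in IP and 3.08 in input, and in H2-DMb1 in IP (4.196 CPM against 3.55). Batch and treatment cannot be told apart in these mice.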

How the results depend on the processing

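None of the 8 genes reversed its direction after a call under any alternative run. For dependent against non-dependent mice in IP, 5 of the 8 were called. The count was 0 with limma voom, 0 in batches J and K only and 0 without batch I, and 5 to 6 with 1 mouse left out. In input it was 4, with 0 in batches J and K only and 0 without batch I, and 4 in every fit with 1 mouse left out. Against naive mice in IP it was 4, with 0 by voom, 0 in batches J and K only and 0 without batch J, and 3 to 4 with 1 mouse left out. In input it was 2, with 4 by DESeq2 and 4 with no batch term (batches C and G included), with 0 by voom, without the filter, in batches J and K only and without batch J, K or L, and 0 to 3 with 1 mouse left out. Between non-dependent and naive mice in IP it was 0, and 5 without the filter. Fewer samples enter the batch settings, and the cause of the other changes was not tested. The share of all genes called is not given here for every setting, among them DESeq2 and no batch term in input. A changed count is thus not read as a result about the members.

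Leaving out 1 mouse ended the call of H2-Eb1 against naive mice in IP for I01, I03, I04, I06, I08, I12, I16, J01, J02, J05, J07, J08, J09, K12, K14, K16, K19, K20, L24, L25, L27, L28 and L30 (log2 fold change 1.83 to 2.23, adjusted p up to 0.0961). In input against naive mice it ended that of Cd74 for J01, J02, J05, J07, J08, K12, K13, K14, K15, K16 and L25 (2.07 to 2.40) and that of H2-Aa for J01, J02, J05, J07, J08, K12 and L25 (2.21 to 2.48).

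Without the replicate block, the pairing by mouse is ignored. There, 2 rather than 7 of the 8 genes were called between IP and input, and 2 rather than 6 in dependent mice. With the block, 81.1% of all genes were called in either direction between IP and input, and 69.2% in dependent mice. Counts of 7 and 6 of 8 are near these shares, and the shares without the block are not given here. Without the block, 0 rather than 2 were called for the treatment difference between fractions against naive and 0 rather than 1 against non-dependent mice. No other call count moved by over 1.5 times without the block. Low counts limit Ciita, with 846 counts over all libraries.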
